A study of Sus scrofa with 12 samples.

Results

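The 10 genes described here, INHBA, INHBB, PTGS2, IGFBP5, VCAN, GJA1, TIMP3, CD44, GATM and NR5A2, are used as markers of cumulus and granulosa cells, and their RNA was followed in pig oocytes from which the cumulus had been removed. They were taken by name from the 28965 genes of the count table. The rule used names alone, but it was set with earlier results of these data known. All 10 had counts and entered the tests. The libraries came from denuded Sus scrofa oocytes, with 3 libraries at each of 0, 12, 28 and 44 h of maturation in vitro, which the series title places in a chemically defined medium. The 0 h oocytes are the starting point, and no untreated or in vivo matured oocytes were analysed here. Sequencing used total RNA and a stranded kit. The origin of the libraries of one time, from separate animals or from separate cultures, is not in the labels. The p-values below therefore measure only the spread between these libraries, which may be technical. In such bulk libraries, fewer cells of a type and less RNA per cell cannot be told apart.

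Cumulus cells are the granulosa cells that surround the oocyte and are joined to it by gap junctions at the ends of fine projections through the zona pellucida. When maturation is triggered, they secrete a hyaluronan-rich matrix and loosen, a process called expansion, which needs prostaglandin signalling, hyaluronan-binding proteins and proteases. They also make steroids and the activin and inhibin subunits. Denuding strips these cells off, but their projections can stay behind, and an oocyte can express some of the same genes itself.

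Each library held 21877235 to 26015373 counts. Levels are given in CPM, counts brought to a common library size, a share of all counts that does not compare genes of different length. The levels are ± SD over 3 libraries unless stated otherwise. A count of 0 in a library still allows up to 0.115 to 0.135 CPM (3 counts), and this limit and the intervals below cover counting error only. Oocyte genes stood far above the markers. BMP15 and GDF9, growth factors secreted by the oocyte, lay at 3839 to 5327 CPM and at 1059 to 1556 CPM, and the kinase WEE2 at 1957 to 2421 CPM over the 12 libraries. Of 16 listed oocyte genes with a row, 12 changed over the 4 times in the test described below. Of all 12977 tested genes, 13.1% changed in that test, and the counts of the gene lists below stand beside this share.

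Before the results, 2 libraries need naming. In 44 h replicate 1, 28 of 12977 tested genes, 0.216%, were at least 5 times as high as in both other 44 h libraries with a count of at least 10, and PTGS2 and NR5A2 were among them. In 28 h replicate 4, 11 genes, 0.0848%, met the same rule within 28 h, and GJA1 was among them. The other 10 libraries had 4 to 14 such genes each, with 0 of the 10 markers. Of the 11 genes of 28 h replicate 4, 27.3% were among those of 44 h replicate 1, and of the 28 genes of 44 h replicate 1, 10.7% were among those of 28 h replicate 4. These shared genes were GSTA1, ID2 and ST3GAL1. Mitochondrially encoded genes took 0.447% of counts in 28 h replicate 4 and 0.566% in 44 h replicate 1, the lowest share of each time, against 0.608 to 1.35% in the other 10 libraries, and the part of this in the results was not tested. The map of each library against the other libraries of its time shows the markers' part of this, and results that rest on either library are given with and without it.

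**Figure D1:**
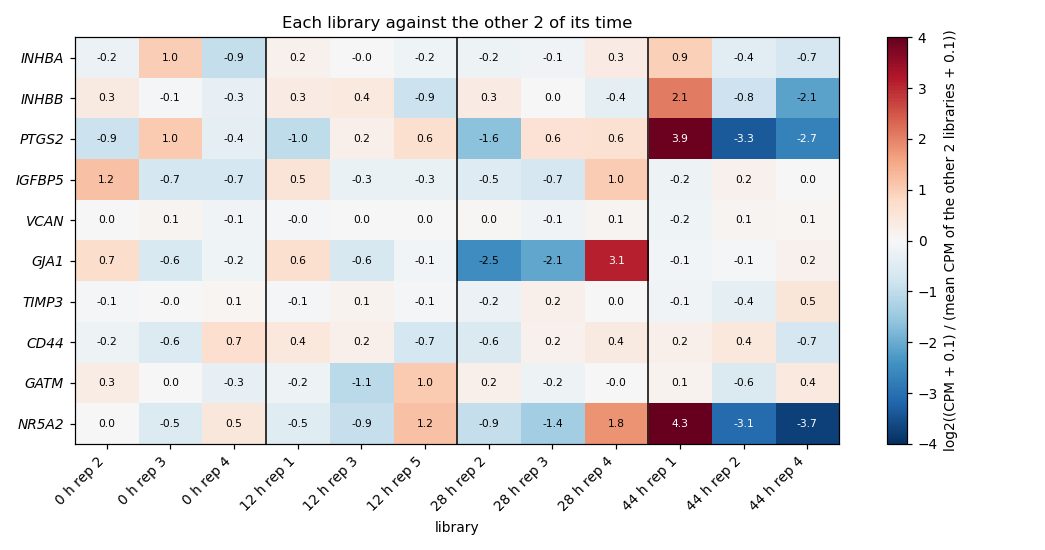
Log2 ratio of the level (CPM plus 0.1) of each of the 10 genes in each library to the mean of the other 2 libraries of the same time, with the ratio printed in each cell and vertical lines between times. The red cells of PTGS2 and NR5A2 at 44 h replicate 1 and of GJA1 at 28 h replicate 4 stand out, with log2 ratios of 3.91, 4.30 and 3.12.

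Per length of the authors' gene models, in RPKM, the order of the means over 12 libraries was VCAN at 2.48, INHBA at 1.97, TIMP3 at 1.53 and INHBB at 1.06, then GATM at 0.240, CD44 at 0.121, PTGS2 at 0.118, GJA1 at 0.117, NR5A2 at 0.0700 and IGFBP5 at 0.0668. The place of PTGS2 rests on 44 h replicate 1: without it the means were 0.0394 RPKM for PTGS2 and 0.0318 RPKM for NR5A2, both below IGFBP5 at 0.0557 RPKM. CD44 was above PTGS2 in 11 of 12 libraries and above GJA1 in 7 of 12. Without 28 h replicate 4, GJA1 averaged 0.0802 RPKM. The order was not the same at each time. At 28 h, INHBA averaged 3.51 ± 0.487 RPKM and VCAN 2.84 ± 0.171 RPKM, while at 0 h INHBA averaged 0.640 ± 0.301 RPKM and VCAN 2.27 ± 0.113 RPKM. The deposited values imply a gene model of 32.2 kb for VCAN, against 2.31 kb for INHBA, and levels per length rest on these models.

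**Figure D2:**
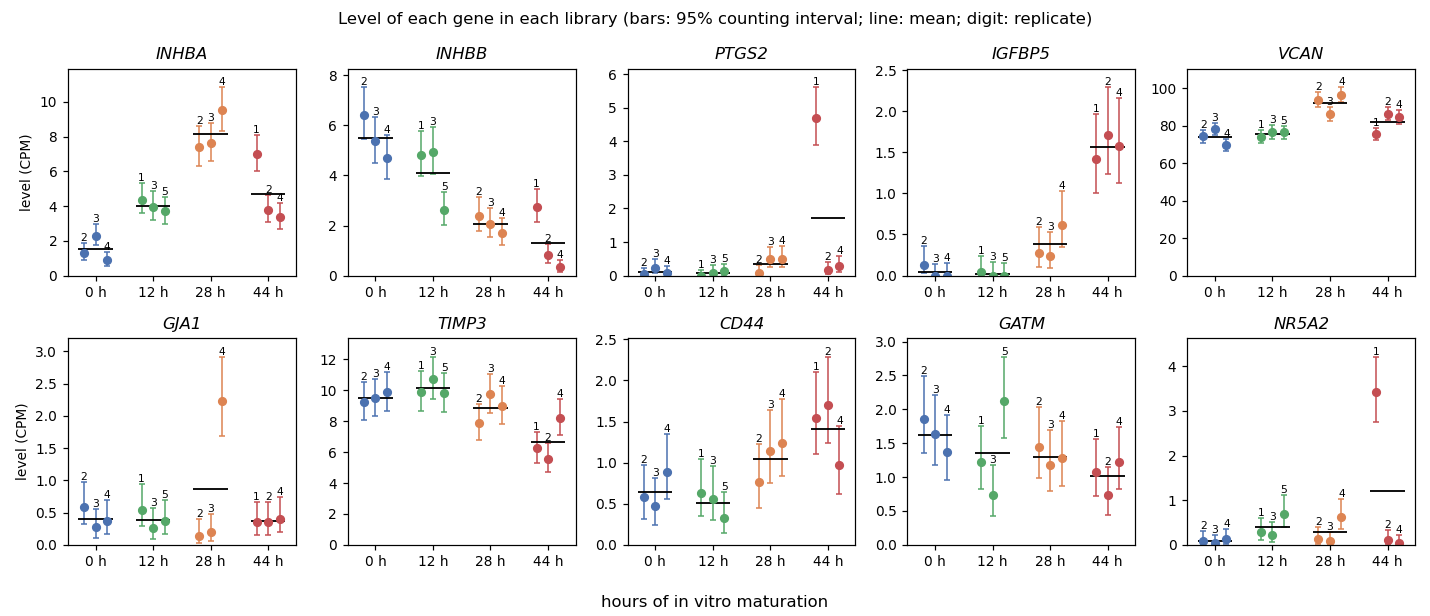
Level in CPM of each of the 10 genes in each library, by hours of maturation, on a linear axis that starts at 0. Points are libraries with their replicate number, bars are 95% Poisson intervals of the count and lines are means of 3 libraries. INHBA is highest at 28 h, between 7.38 and 9.53 CPM, IGFBP5 is above 1.42 CPM in all 44 h libraries, and the means of PTGS2, NR5A2 and GJA1 are each pulled up by 1 library.

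INHBA encodes the beta A subunit, which pairs with itself as activin A or with the alpha subunit as inhibin A (ENSSSCG00000035077; Sscrofa11.1 chromosome 18, 52889684 to 52900967, plus strand). At 0 h its level was 1.33, 2.29 and 0.890 CPM. At 12 h it was 4.38, 3.98 and 3.71 CPM, at 28 h 7.38, 7.62 and 9.53 CPM, and at 44 h 7.01, 3.80 and 3.36 CPM. Every 28 h library thus lay above every library of the other times, and every 44 h library lay above every 0 h library. INHBA rose by 2.44 on the log2 scale between 28 h and 0 h (SE 0.30; edgeR quasi-likelihood F test, Benjamini-Hochberg adjusted p = 3.65e-05), which is 5.41-fold. It rose by 1.65 between 44 h and 0 h (SE 0.30, adjusted p = 0.000385 in the same edgeR test). INHBA kept both calls when any 1 of the 12 libraries was left out.

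The single steps of INHBA did not pass the threshold of 0.05 in that test. Between 12 h and 0 h the groups did not overlap, with 4.02 ± 0.338 CPM against 1.503 ± 0.718 CPM, a log2 difference of 1.41 (SE 0.30) and an edgeR adjusted p of 0.0574. Leaving out 0 h replicate 3, the highest of its time, gave 1.85 and an adjusted p of 0.00385, and leaving out 44 h replicate 1 or 44 h replicate 4 also brought it past the threshold, with edgeR adjusted p-values of 0.0162 and 0.0425. Only these 3 of the 12 fits without 1 library passed, and the edgeR adjusted p in the rest reached 0.397. The step to 28 h from 12 h had a log2 difference of 1.02 (SE 0.27, edgeR adjusted p = 0.189). It passed in 0 of the fits without 1 library, with edgeR adjusted p-values of 0.0658 to 0.647. The step to 44 h from 28 h had -0.79 (SE 0.27, edgeR adjusted p = 0.109), again with no overlap. Without 44 h replicate 1, which lay 0.95 above the other 44 h libraries on the log2 scale of the map, it was -1.19 with an edgeR adjusted p of 0.0134. That was the only fit without 1 library that passed for this step, and the edgeR adjusted p in the rest reached 0.358. The authors' deposited table gave INHBA false discovery rates of 0.00587, 0.00184 and 0.0110 for these 3 steps.

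INHBB encodes the beta B subunit (ENSSSCG00000038610; chromosome 15, 30999520 to 31004405, minus strand). Its level was 6.42, 5.36 and 4.69 CPM at 0 h, 4.80, 4.93 and 2.61 CPM at 12 h, 2.39, 2.07 and 1.70 CPM at 28 h, and 2.73, 0.814 and 0.324 CPM at 44 h. All 28 h and all 44 h libraries lay below all 0 h libraries. INHBB fell by 2.08 on the log2 scale between 44 h and 0 h (SE 0.49; edgeR quasi-likelihood F test, Benjamini-Hochberg adjusted p = 0.00767). Its summed counts were 100 at 44 h, against 409 at 0 h. INHBB kept this call with any 1 library left out, and without 44 h replicate 1 the difference was -3.25. That library had 71 of the 100 counts at 44 h. The difference of -1.42 (SE 0.47) between 28 h and 0 h had an edgeR adjusted p of 0.156, while the authors' deposited table gave a false discovery rate of 5.86e-07. Leaving out 44 h replicate 1 or 44 h replicate 4, neither of them in that pair, gave edgeR adjusted p-values of 0.00618 and 0.0214, and limma-voom (0.0426) and the edgeR fit of only these times (0.00141) also called it. In all, 5 of 23 alternatives called this difference. Only those 2 of the fits without 1 library did, and the edgeR adjusted p in the rest reached 0.502. At 44 h and 28 h the groups overlapped, with -0.66 (SE 0.51, edgeR adjusted p = 0.627), and without 44 h replicate 1 the difference was -1.83 with an edgeR adjusted p of 0.00805.

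Per length, the ratio of INHBA to INHBB was 0.268, 0.555 and 0.246 at 0 h and 1.18, 1.05 and 1.85 at 12 h. It was 4.02, 4.79 and 7.28 at 28 h and 3.33, 6.06 and 13.5 at 44 h. INHBB was thus the higher of both in all 3 libraries at 0 h, and INHBA in all 9 later ones. INHA, the alpha subunit that inhibin needs, had 67 counts in 44 h replicate 1 and 0 in the other 44 h libraries, and at most 11 counts in each of the 9 earlier libraries.

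**Figure D3:**
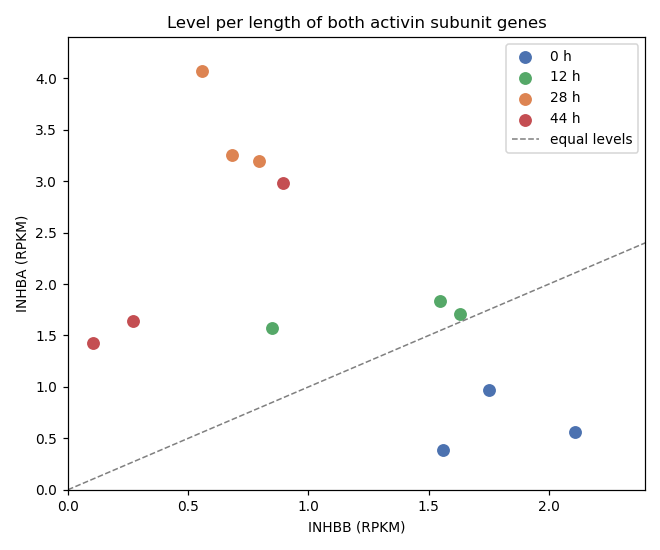
Level of INHBA against level of INHBB in RPKM, 1 point per library, coloured by hours of maturation, with a dashed line at equal levels. The 0 h libraries lie below the line and all others above it. The 28 h libraries have the 3 highest INHBA levels, and 44 h replicate 1 is the 44 h point with the highest level of both genes.

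Of 17 other genes listed for the activin and inhibin pathway, 10 were tested and 3 changed over the 4 times (all tested genes: 13.1%). ACVR1B and ACVR2B, receptors of activin, were higher at 44 h than at 0 h, with 442 ± 11.8 against 329 ± 9.55 CPM and 76.5 ± 5.05 against 58.0 ± 7.36 CPM (edgeR adjusted p = 0.000225 and 0.00203). FSTL3, a secreted protein that binds activin, fell to 54.1 ± 8.504 CPM at 44 h, against 71.99 ± 8.28 CPM at 0 h (edgeR adjusted p = 0.00903). FST, the related follistatin and itself a granulosa cell gene, had 45 to 96 counts in every library and was not called.

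IGFBP5 encodes a binding protein for insulin-like growth factors (ENSSSCG00000025924; chromosome 15, 118857479 to 118878522, minus strand). It had 3, 0 and 0 counts at 0 h, 1, 0 and 0 counts at 12 h, 6, 6 and 15 counts at 28 h, and 37, 44 and 39 counts at 44 h. The 44 h libraries, at 1.42, 1.71 and 1.58 CPM, lay within 1.197-fold of each other and above all others. IGFBP5 rose between 44 h and 0 h (edgeR quasi-likelihood F test, Benjamini-Hochberg adjusted p = 6.68e-05), with a ratio of summed, depth-scaled counts of 39.0 and a 95% counting interval of 13.04 to 192. It kept this call with any 1 library left out, and without 44 h replicate 1 the adjusted p in edgeR was 0.000271. The log2 difference of 2.04 (SE 0.60) between 44 h and 28 h had an edgeR adjusted p of 0.0521, and the 6 fits that left out 1 of the 0 h or 12 h libraries were past the threshold. The fits that left out a 28 h or 44 h library were not, with edgeR adjusted p-values up to 0.235. At 28 h and 0 h no library overlapped, and the edgeR adjusted p was 0.0719. Its low counts at 0 and 12 h mean that it entered the tests through its later libraries.

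Of 18 other genes of the IGF pathway with a row, 13 were tested and 2 changed over the 4 times (all tested genes: 13.1%). IGFBP7, a related secreted protein, fell to 19.7 ± 2.36 CPM at 44 h, against 80.2 ± 11.5 CPM at 0 h (log2 -2.02, edgeR adjusted p = 2.48e-11), the opposite direction to IGFBP5. IGF1, a ligand, had 0.0144 ± 0.0249 CPM at 12 h against 0.647 ± 0.231 CPM at 0 h (edgeR adjusted p = 0.0124). Its 28 h and 44 h means, 0.674 ± 0.207 and 0.830 ± 0.413 CPM, lay within 1 SD of the 0 h mean.

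Among the matrix genes, VCAN encodes versican, a proteoglycan that binds hyaluronan (ENSSSCG00000014136; chromosome 2, 91358399 to 91811208, plus strand). It was by far the highest of the markers in CPM, at 74.4, 78.2 and 69.4 CPM at 0 h, 74.1, 76.6 and 76.3 CPM at 12 h, 93.8, 86.1 and 96.4 CPM at 28 h, and 75.4, 86.3 and 84.5 CPM at 44 h. All 28 h libraries lay above all 0 h and 12 h libraries, by a small margin. VCAN rose 1.24-fold between 28 h and 0 h (log2 0.32, SE 0.08; edgeR quasi-likelihood F test, Benjamini-Hochberg adjusted p = 0.0253). The call was lost without 0 h replicate 2, 0 h replicate 4, 28 h replicate 2 or 28 h replicate 4, with edgeR adjusted p-values of 0.107, 0.118, 0.0873 and 0.173. The difference between 44 h and 0 h was 0.15 (SE 0.08, edgeR adjusted p = 0.192).

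TIMP3, an inhibitor of metalloproteinases that binds the matrix (ENSSSCG00000031866; chromosome 5, 12185816 to 12242637, minus strand), had 9.24, 9.48 and 9.87 CPM at 0 h and 9.89, 10.8 and 9.82 CPM at 12 h. It had 7.88, 9.73 and 8.99 CPM at 28 h and 6.24, 5.58 and 8.23 CPM at 44 h. All 44 h libraries lay below all 0 h libraries. TIMP3 fell by 0.51 on the log2 scale between 44 h and 0 h (SE 0.16; edgeR quasi-likelihood F test, Benjamini-Hochberg adjusted p = 0.0249). The call was lost without 0 h replicate 2, 0 h replicate 4, 44 h replicate 1 or 44 h replicate 2, with edgeR adjusted p-values of 0.0537, 0.0702, 0.0968 and 0.129. The TIMP3 gene lies on the other strand within SYN3, which had 89 to 131 counts per library, and whether counting used strand is not given in the sources used here.

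CD44 is the cell surface receptor for hyaluronan (ENSSSCG00000013297; chromosome 2, 25788704 to 25884153, minus strand). Its level was 0.580, 0.466 and 0.890 CPM at 0 h, 0.632, 0.562 and 0.326 CPM at 12 h, 0.765, 1.14 and 1.24 CPM at 28 h, and 1.54, 1.71 and 0.973 CPM at 44 h. All 44 h libraries lay above all 0 h libraries, but the log2 difference of 1.12 (SE 0.45) had an edgeR adjusted p of 0.0821. The CD44 gene overlaps SLC1A2 on the other strand, which had 192 to 314 counts. Of 34 other hyaluronan matrix and protease genes with a row, 19 were tested and 1 changed over the 4 times (all tested genes: 13.1%). That gene, MSN, encodes moesin, which links CD44 to actin, and fell to 4.43 ± 0.678 CPM at 44 h, against 14.3 ± 2.02 CPM at 28 h (log2 -1.69, edgeR adjusted p = 3.23e-07). EZR and RDX, named after their values were seen, encode ezrin and radixin, which link CD44 to actin in the same way. They were higher at 44 h than at 0 h, with 1090 ± 10.3 against 970.03 ± 44.03 CPM and 436 ± 20.6 against 377 ± 35.8 CPM (log2 0.17 and 0.21, edgeR adjusted p = 0.0487 and 0.0375). TNFAIP6 and PTX3, hyaluronan-binding proteins of the expanding cumulus, had at most 7 and 5 counts in any library. These highest counts were in 44 h replicate 4, and 44 h replicate 1 had 0 counts of either gene.

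PTGS2 encodes the inducible cyclooxygenase that starts prostaglandin synthesis in the cumulus (ENSSSCG00000015579; chromosome 9, 127850013 to 127858884, minus strand). It had 1, 6 and 2 counts at 0 h, 0, 2 and 3 at 12 h, 2, 12 and 12 at 28 h, and 122, 4 and 7 at 44 h. In CPM the 44 h libraries stood at 4.70, 0.155 and 0.284, so 44 h replicate 1 alone was high and the others overlapped with 0 h. The test across all libraries called PTGS2 higher at 44 h than at 0 h (log2 3.78, SE 1.23; edgeR quasi-likelihood F test, Benjamini-Hochberg adjusted p = 0.0412). Without 44 h replicate 1 the log2 difference was 0.84 with an edgeR adjusted p of 0.677. The call was also lost without any of 8 other single libraries, 3 from 0 h, 3 from 12 h and 2 from 28 h, at edgeR adjusted p-values of 0.0503 to 0.155. DESeq2 gave PTGS2 no p-value in this comparison, and the authors' deposited table gave a false discovery rate of 0.000586. Of 7 other tested genes of the prostaglandin pathway, 0 changed over the 4 times in edgeR (all tested genes: 13.1%). In that test edgeR, DESeq2 and limma-voom each gave 0 of them an unadjusted p under 0.05, while each gave 2 between 12 h and 0 h and 1 between 44 h and 0 h, with 0 past the adjusted threshold.

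NR5A2, a nuclear receptor of granulosa cells (ENSSSCG00000024975; chromosome 10, 22715735 to 22866904, plus strand), had 2, 1 and 3 counts at 0 h, 7, 5 and 17 at 12 h, 3, 2 and 15 at 28 h, and 89, 3 and 1 at 44 h. As with PTGS2, only 44 h replicate 1 was high at 44 h. The log2 difference between 44 h and 0 h was 3.81 (SE 1.43, edgeR adjusted p = 0.0748), and without 44 h replicate 1 it was -0.029 (edgeR adjusted p = 0.994). DESeq2 gave NR5A2 no p-value there, and the authors' deposited table gave a false discovery rate of 0.00361. Both PTGS2 and NR5A2 entered the tests through the few libraries in which they were high. Of 15 genes with a row around NR5A2 and steroid synthesis, 11 were tested and 1 changed over the 4 times (all tested genes: 13.1%). That gene, NR0B1, a nuclear receptor without a DNA-binding domain, fell to 119 ± 7.86 CPM at 44 h, against 171 ± 11.08 CPM at 28 h (edgeR adjusted p = 8.02e-05).

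GJA1 encodes connexin 43, the gap junction protein that joins cumulus cells to each other (ENSSSCG00000004241; chromosome 1, 40988515 to 41002137, minus strand). It had 14, 7 and 9 counts at 0 h, 13, 6 and 9 at 12 h, 3, 5 and 54 at 28 h, and 9, 9 and 10 at 44 h. Only 28 h replicate 4 was high, at 2.24 CPM against 0.135 and 0.203 CPM in the other 28 h libraries. The 28 h and 0 h groups overlapped, with a log2 difference of 1.08 (SE 0.75, edgeR adjusted p = 0.584), and without 28 h replicate 4 the difference was -1.23 (edgeR adjusted p = 0.713). Between 44 h and 28 h the difference was -1.22 (SE 0.75, edgeR adjusted p = 0.485), and without 28 h replicate 4 it was 1.09 (edgeR adjusted p = 0.593). Of 9 other tested gap junction genes, 1 changed over the 4 times (all tested genes: 13.1%). It was TJP1, a scaffold protein at junctions, with 854 ± 27.5 CPM at 44 h against 690 ± 68.2 CPM at 0 h (edgeR adjusted p = 0.00541).

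GATM, the first enzyme of creatine synthesis (ENSSSCG00000004672; chromosome 1, 126361945 to 126380872, plus strand), had 1.86, 1.63 and 1.37 CPM at 0 h, 1.22, 0.735 and 2.12 CPM at 12 h, 1.44, 1.18 and 1.28 CPM at 28 h, and 1.08, 0.736 and 1.22 CPM at 44 h. All 44 h libraries lay below all 0 h libraries, with 1.01 ± 0.247 against 1.62 ± 0.245 CPM. The log2 difference of -0.68 (SE 0.39) did not pass (edgeR adjusted p = 0.241). Of 4 other genes of the creatine pathway, all tested, 0 changed over the 4 times in edgeR, and edgeR, DESeq2 and limma-voom each gave 0 of them an unadjusted p under 0.05 in that test or in any of the 5 pairs of times.

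**Figure D4:**
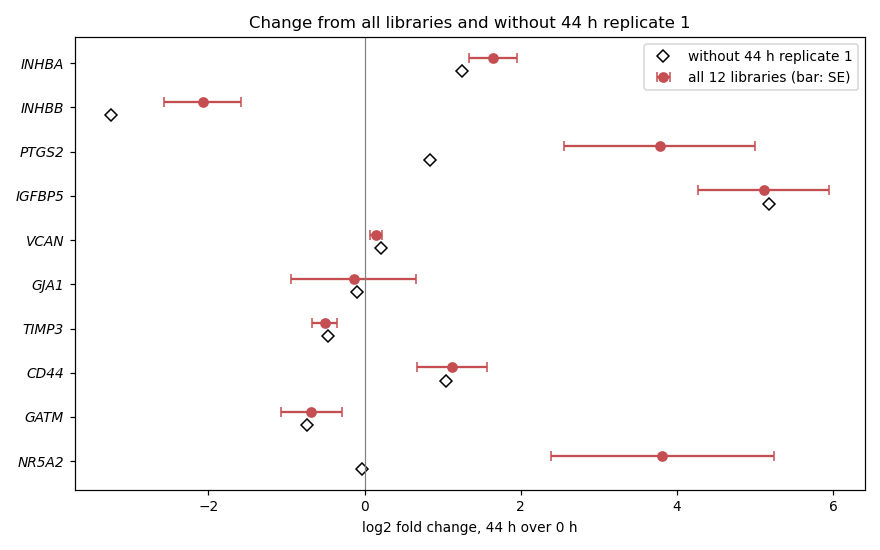
Log2 fold change of each gene at 44 h over 0 h, from all 12 libraries (filled points, bars are SE) and without 44 h replicate 1 (open diamonds). PTGS2 drops to 0.84 and NR5A2 to -0.029 without that library, INHBB goes to -3.25, and IGFBP5 is at 5.18.

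Over the pairs of times, 0 of the 10 markers were called between 12 h and 0 h, where 0.208% of all 12977 tested genes were. INHBA was nearest, as given above. Between 28 h and 12 h 0 were called, with 0.262% of all genes, and between 44 h and 28 h 0, with 4.69%. At an unadjusted p under 0.05, edgeR had 1, 4 and 4 of the 10 in these steps. The share of all genes under that unadjusted p was not computed, so nothing is drawn from these counts. DESeq2 called 1, 0 and 0 of the 10 after adjustment, and limma-voom 0, 0 and 2. Over all genes DESeq2 called 72 between 12 h and 0 h and 69 between 28 h and 12 h, and limma-voom 22 and 28. Between 44 h and 28 h, calls over all genes ranged from 335 to 971 over the alternatives, with 609 in the main fit. Between 28 h and 0 h, 2 markers rose, INHBA and VCAN, where 2.66% of all genes were called and 0.609% were called higher. Between 44 h and 0 h, 5 were called, against 19.9% of all genes. INHBA, IGFBP5 and PTGS2 were higher, against 8.30% of all genes, and INHBB and TIMP3 were lower, against 11.6%. IGFBP5, PTGS2 and NR5A2 entered the tests only through later libraries in which they were high. This favours rises over 0 h in the counts and medians given here. GJA1 had more than 10 counts only in 0 h replicate 2, 12 h replicate 1 and 28 h replicate 4. Its entry thus rested in part on 28 h replicate 4, where it was high. Without 44 h replicate 1, 3 of the 10 were called, where 13.6% of all genes were called in that fit. Groups did not overlap at 44 h and 0 h for 3 markers above (INHBA, IGFBP5 and CD44), against 15.8% of all genes, and for 3 below (INHBB, TIMP3 and GATM), against 17.7%. Over all 4 times, 5 changed (INHBA, INHBB, IGFBP5, VCAN and TIMP3), against 13.1% of all genes. The median log2 difference between 44 h and 0 h was 0.63 over the 10 markers and -0.00 over all tested genes, and without 44 h replicate 1 it was 0.09 over the markers. For 28 h and 0 h the markers' median was 0.89, and 0.33 without 28 h replicate 4. The pairs with 0 h share the 0 h libraries, and neighbouring steps share a time as well. The direction was therefore mixed among the 10.

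The other cumulus and granulosa cell genes were looked at library by library. Of 35 listed, 31 had a row, 15 were tested and 2 changed over the 4 times (all tested genes: 13.1%). AMH, a hormone of granulosa cells, was at 164 ± 11.14 CPM at 44 h against 209 ± 39.6 CPM at 0 h (edgeR adjusted p = 0.0107), and GATA4, a transcription factor, was at 183 ± 10.9 CPM at 44 h against 149 ± 6.72 CPM at 0 h (edgeR adjusted p = 0.00550). Both were abundant in all 12 libraries. FSHR, the receptor for follicle-stimulating hormone, was at 0 counts in all 12. CYP19A1, the aromatase of granulosa cells, had 26 counts in 44 h replicate 1 and at most 3 in any other library. CYP11A1, the first enzyme of steroid synthesis, had 22 counts in 28 h replicate 4, 0 in 44 h replicate 1 and at most 12 in any other. FOXL2 had at most 6 counts in any library, and STAR had 58 to 148 in all of them. NR5A1 had 4 to 41 counts.

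The summed level of the 24 listed cumulus and granulosa cell genes below 10 CPM was highest of its time in 28 h replicate 4 and 44 h replicate 1. At 0 h it ranged over 17.8 to 22.6 CPM, and at 12 h over 14.2 to 21.1 CPM. At 28 h it was 26.3 CPM in replicate 4, against 18.5 and 19.9 CPM in the others, and at 44 h it was 31.3 CPM in replicate 1, against 14.1 and 16.0 CPM. GSTA1 is 1 of these genes. With GSTA1 left out, 28 h replicate 4 had a sum of 19.9 CPM, and the other 28 h libraries had 17.8 and 19.1 CPM. The sum of 44 h replicate 1 was then 25.6 CPM, while the other 44 h libraries had 13.7 and 15.6 CPM. Sums of the listed theca, endothelium and blood genes below 10 CPM were also highest of their time in both libraries. In 44 h replicate 1 they were 13.3, 2.54 and 14.4 CPM, against at most 10.2, 1.74 and 13.4 CPM in the others. In 28 h replicate 4 they were 12.5, 2.44 and 16.5 CPM, against at most 12.3, 1.76 and 14.3 CPM in the others. Of the listed cumulus and granulosa cell genes with a count at 44 h, 12 of 22 were highest in replicate 1. Of those with a count at 28 h, 12 of 19 were highest in replicate 4. At 0 h and at 12 h, 10 of 21 were highest in replicate 2 and in replicate 3. The share of all genes highest in each library was not computed. Of the 10 markers, 7 were highest of their time in 28 h replicate 4. There were 4 such markers in 44 h replicate 1, as also in 0 h replicate 2 and in 12 h replicate 1, and 1 to 3 in each other library. Whether RNA of cumulus cells had a part in the high values of PTGS2, NR5A2 and GJA1 was not tested. The rise of INHBA and IGFBP5 between 44 h and 0 h was past the threshold without 44 h replicate 1 as well. Whether RNA of cumulus cells had a part in that rise was not tested either. The theca, endothelium and blood lists had 2 of 8, 1 of 4 and 1 of 5 tested genes that changed over the 4 times. These were COL1A2 and TAGLN, TEK, and CD79A, each lower at 44 h than at 0 h (edgeR adjusted p = 0.00395, 0.0102, 0.00694 and 0.0101). Of all tested genes, 13.1% changed over the 4 times.

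**Figure D5:**
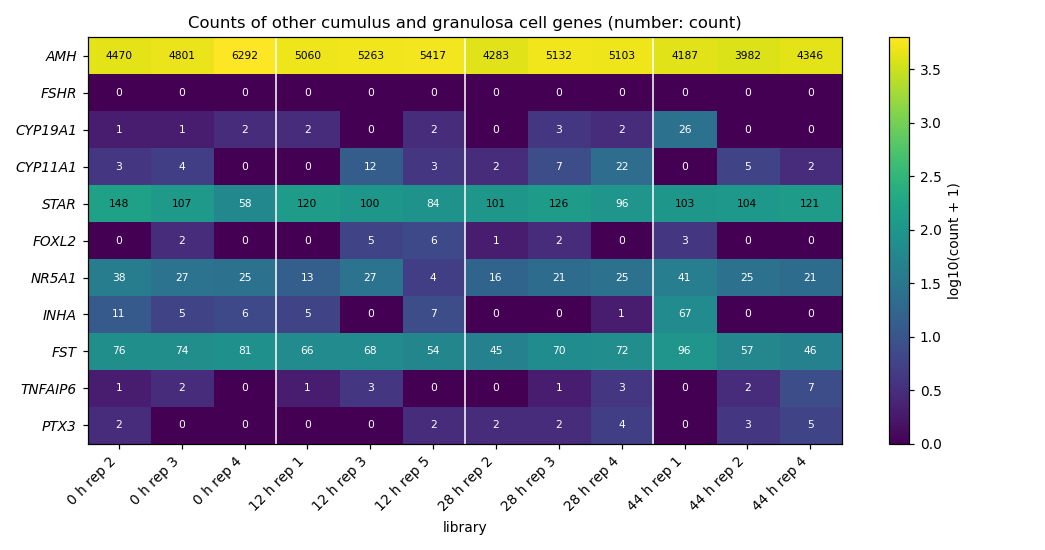
Counts of 11 other genes of cumulus and granulosa cells in each library, coloured by log10(count + 1) with the count printed and white lines between times. FSHR is at 0 throughout, AMH is at 3982 to 6292 counts throughout, INHA and CYP19A1 are high in 44 h replicate 1, with 67 and 26 counts, and CYP11A1 in 28 h replicate 4, with 22. CYP11A1, TNFAIP6 and PTX3 are at 0 in 44 h replicate 1.

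The genes most like the markers were sought among 11750 tested genes with a symbol by Pearson's r of log2 CPM over the 12 libraries, as a description only, since libraries of one time share their condition. GSTA1, a glutathione transferase abundant in steroid-making cells, was nearest to the mean profile of the 10, with r = 0.904. It had 155 counts in 28 h replicate 4, against 17 and 21 in the other 28 h libraries, and 149 in 44 h replicate 1, against 12 and 12. MYO9B, ZFYVE26, TLN1 and PPP1R9B followed, with r of 0.813 to 0.865. For INHBA the nearest were ZEB2 (r = 0.954), with means of 0.656, 7.61, 30.5 and 9.09 CPM at 0, 12, 28 and 44 h, and MAP1B (r = 0.944), with 79.9, 165, 255 and 192 CPM. They were HAPLN4 (0.931) and EXOSC4 (0.926) for INHBB and ZNF236 (0.943) and DCBLD1 (0.939) for IGFBP5. NMD3 (0.832) was among the nearest for VCAN, and TRIP4 (0.947) and ABI3BP (0.946) were the nearest for TIMP3.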

How the data were processed

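RNA-seq libraries of pig oocytes were matched to samples by the time and replicate number in their titles, and none of 66 pairs held identical values. Per the file headers, the deposited table holds total counts per gene, RPKM that the authors derived from them, and, for pairs of times, the authors' own log2 differences with their FDR-adjusted p-values, which were used only where named. Per the submitters' processing notes the build was Sscrofa11.1 and the authors used DESeq2; how reads were aligned, and whether strand and repeated matches were taken into account, is not given in the sources used here. A library was prepared from total RNA with 15 PCR cycles, per the labels' protocols, and its counts are not of tagged molecules.

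Genes passing filterByExpr (minimum count 10) were fitted on the counts in edgeR 4.0.16 (R 4.3.3) with TMM scaling (factors 0.979 to 1.02), 1 mean per time, all 12 libraries and robust estimation of the spread. Each pair of times, and any change over the 4 times, was tested by the quasi-likelihood F test of edgeR, with p-values adjusted over all 12977 tested genes (Benjamini-Hochberg) at 0.05; the biological coefficient of variation was 10.6%. DESeq2 1.42.0, limma-voom (limma 3.58.1), other scalings and filters, fits of 2 times, the replicate number as block, and each library left out were alternatives. The steps were tested on simulated data.

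The 10 genes and all gene lists were chosen with earlier results of these data known. Named besides the 10 were up to 3 changed genes of each list by smallest p, the genes nearest in profile, and a panel of cumulus and oocyte genes; TIMP1 and other genes high in 1 library were picked after their values were seen. Results of some single genes are left out here. HSD3B1, HAS2, SDC4 and BEX2 were not analysed here. Of 10 pairs of libraries with the same replicate number, 9 had a positive correlation of their deviations and 2 had one above 0.1. The main fit did not pair the samples by number, and these values do not settle whether it should have. Results with the number as a block are given below.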

Additional observations from a re-analysis of the deposited data

How the results depend on the processing

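The calls of INHBA, INHBB and IGFBP5 between 44 h and 0 h, and of INHBA between 28 h and 0 h, passed the threshold in every alternative that gave an adjusted p; DESeq2 gave none for IGFBP5. Numbers of the 10 genes called moved elsewhere, and the cause was not tested. For 12 h and 0 h (0 called), no filter, DESeq2, and leaving out both 28 h replicate 4 and 44 h replicate 1 (chosen after seeing the data) each called 1, which was INHBA. For 28 h and 12 h (0 called), no filter called 2 and the fit of only these times 1. For 44 h and 28 h (0 called), a filter of 1 CPM in 3 libraries called 1, limma-voom 2, the fit of only these times 2, and leaving out both libraries 1. For 28 h and 0 h (2 called), leaving out both libraries left 1. For 44 h and 0 h (5 called), DESeq2 called 3 and leaving out both libraries 3, and for any change (5 called) leaving out both gave 3. With each library left out in turn, the number called ranged from 0 to 1 (12 h and 0 h), 0 to 0 (28 h and 12 h), 0 to 2 (44 h and 28 h), 1 to 3 (28 h and 0 h), 3 to 6 (44 h and 0 h) and 2 to 7 (any change). The difference of NR5A2 between 44 h and 0 h turned to -0.029 without 44 h replicate 1, in a range of -0.029 to 4.37 over single libraries left out, and to -0.029 with both libraries left out. With the replicate number as a block (replicate block), 1 gene, INHBA, was called between 44 h and 28 h (log2 -1.002, edgeR adjusted p = 0.0314), and PTGS2 was no longer called between 44 h and 0 h (2.02, adjusted p = 0.193). INHBB was called between 28 h and 0 h under the block (-1.43, adjusted p = 0.0154), and for any change PTGS2 was called and VCAN and TIMP3 were not. Same-numbered libraries had a median correlation of 0.0530 and other pairs -0.0151, and in 7 of 12 libraries the deviations correlated best with those of the same number. Over all genes, calls between 12 h and 0 h ranged from 18 to 273 and between 28 h and 12 h from 8 to 69 over the alternatives. They ranged from 335 to 971 between 44 h and 28 h and from 114 to 630 between 28 h and 0 h. Between 44 h and 0 h they ranged from 1667 to 2929, and for any change from 935 to 2299. The numbers called thus moved over all genes as well as among the 10. Without 44 h replicate 1, the 44 h mean was 0.219 CPM for PTGS2, against 1.71 CPM with it, and 0.0784 CPM for NR5A2, against 1.19 CPM with it. Counts below about 10 per library limit what can be said of PTGS2, IGFBP5, NR5A2 and GJA1.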

Other observations

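Genes other than the markers were also high in only 1 library of a time, and were picked here after their values were seen. In 44 h replicate 1, PFKFB3, which raises the signal that drives glycolysis, had 250 counts, against 20 and 8 in the other 44 h libraries. SOCS3, an inhibitor of cytokine signalling, had 239, against 8 and 6. JUNB, an immediate early transcription factor, had 115, against 11 and 10. VIM, the intermediate filament protein vimentin, had 111, against 6 and 7, and PLEK, a protein of blood cells, had 204, against 4 and 6. The cytokine gene OSM had 43, against 8 and 1.

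In 28 h replicate 4, TIMP1, a metalloproteinase inhibitor, had 98 counts, against 15 and 11 in the other 28 h libraries. SCARB1, the receptor that takes up cholesterol from high-density lipoprotein, had 53, against 1 and 4, and LIPG, a lipase, had 44, against 2 and 3. No test was made of these single libraries.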
